A study of Homo sapiens with 2 samples.

Results

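The genes described here make cholesterol and fatty acids or control that synthesis: 35 genes, chosen by symbol as 5 regulators of the SREBP system, 18 genes on the way from acetyl-CoA to cholesterol and in sterol carriage, and 12 genes of fatty acid synthesis, elongation, desaturation and activation. All 35 symbols were present once in the deposited tables, of 23452 symbols with a value. The choice rested on pathway membership, and it was made with earlier results of these data known. RNA was sequenced from G401, an established human cell line of a renal rhabdoid tumor, in 1 library of cells with a control guide (G401-sg-control) and 1 library of cells with a CRISPR guide against the homeobox gene HOXB13 (G401-sg1-HOXB13). Both were grown in RPMI with 15% fetal bovine serum, a source of outside lipoproteins, and taken at 80% confluency. Whether the guided cells were a clone or a pool, and where in HOXB13 the guide cuts, is not given in the sources used here. The study asked what knockout of HOXB13 did to the transcriptome, and with 1 library a group no difference below had a replicate check.

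SREBP-1 and SREBP-2, encoded by SREBF1 and SREBF2, are transcription factors made as membrane proteins of the endoplasmic reticulum. When sterols are low, their escort SCAP carries them to the Golgi, where they are cut and freed to enter the nucleus. When sterols are high, INSIG proteins hold SCAP back. SREBP-2 acts mainly on genes of cholesterol synthesis and uptake and SREBP-1 mainly on genes of fatty acid synthesis, and INSIG1 is itself a target.

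Values were FPKM, fragments scaled by transcript length and library size. Genes that reached 1 FPKM in at least 1 library were kept, which left 11970 genes, called tested below, all 35 lipid synthesis genes among them. Libraries were compared by the difference of log2(FPKM + 1), HOXB13-guided minus control, a scale that understates the ratio of low genes. Calls were made at 2-fold on that scale, by size alone and with no statistical test. Steps between low FPKM values put the libraries at about 24.1 M reads (control) and 23.6 M reads (HOXB13-guided). From these, 95% intervals of the plain FPKM ratio were computed, which cover counting error only. HOXB13 itself had 14.6 FPKM in the control and 4.50 FPKM in the HOXB13-guided library (log2 −1.50). SMARCB1, whose loss marks rhabdoid tumors, had 0.113 and 0.0577 FPKM. The 4 adipocyte and 3 hepatocyte markers each stayed at or below 0.184 FPKM in both libraries, and the 3 endothelial ones at or below 0.0214. Of the leukocyte markers PTPRC had 0.0165 and 0 FPKM, while CD68, a lysosomal protein gene, had 102 and 111. The 3 epithelial markers did not share a direction: CDH1, E-cadherin, had 32.3 and 1.28 FPKM (log2 −3.87), EPCAM 8.68 and 5.72, and KRT18, a keratin, 1020 and 1570. Their part in the results below was not tested.

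Lipid synthesis genes were mostly higher in the HOXB13-guided library. Of the 35, 7 were at least 2-fold higher (INSIG1, HMGCS1, FDPS, FDFT1, EBP, DHCR7 and FADS2), against 4.25% of all tested genes, and 0 at least 2-fold lower, against 4.51%. The ratio lay above 0 for 32 of them, against 45.6% of all tested genes, and below 0 for 3, against 54.4%, and with ratios centred on the housekeeping list 24 lay above 0, against 18.5% of all tested genes on that scale. At 1.5-fold, 20 were higher, against 11.8% of all tested genes. Their log2 ratios had a median of 0.73 (quartiles 0.29 and 0.93), where all tested genes had a median of −0.05 with quartiles of −0.38 and 0.29. Among the 5846 tested genes with a mean of 10 to 100 FPKM, the band that holds most of these genes, 3.46% were at least 2-fold higher and 45.0% were above 0. Summed over the 35 genes, the level was 999 FPKM in the control and 1680 FPKM in the HOXB13-guided library, which is 0.193% and 0.321% of all FPKM. In these bulk libraries a larger share of cells that express a gene cannot be told apart from more RNA per cell.

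**Figure D1:**
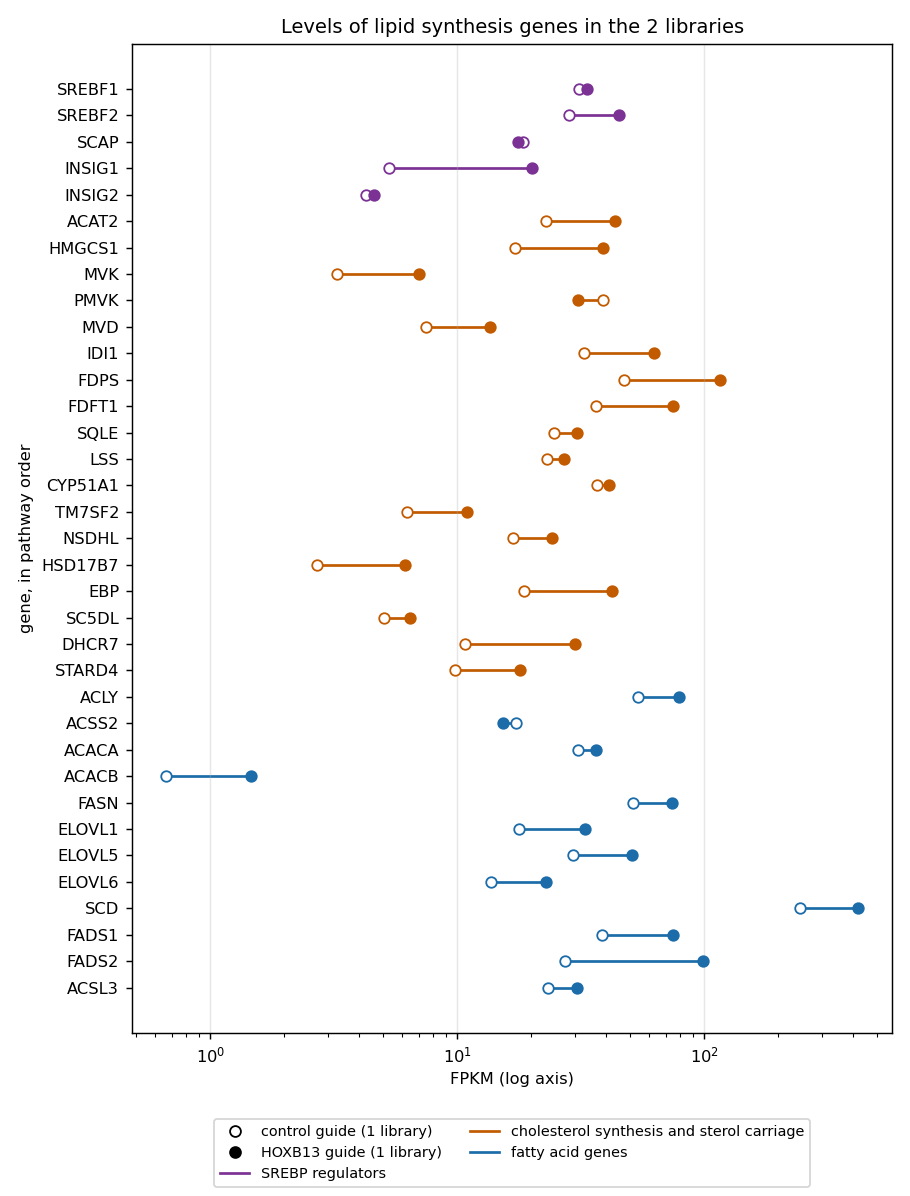
FPKM of each of the 35 lipid synthesis genes on a log axis, in pathway order from top to bottom; open points are the control library, filled points the HOXB13-guided library, with no error bars because each group is 1 library. With FPKM as deposited, the filled point lies to the right for 32 genes and to the left for SCAP, PMVK and ACSS2.

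A list of 27 housekeeping genes was also above the median of all genes, with a median log2 ratio of 0.40. Of them 20 lay above 0, 1 was at least 2-fold higher and 0 lower, against 45.6%, 4.25% and 4.51% of all tested genes. B2M had 197 and 405 FPKM, SDHA 41.6 and 81.7, and GAPDH 928 and 1790 in the control and HOXB13-guided library. Ratios were therefore also centred on that list, which moved the median of all tested genes from −0.05 to −0.46 and the higher share of all calls from 48.5% to 13.2%. On that scale 2 lipid synthesis genes stayed at least 2-fold higher, INSIG1 and FADS2, and 0 were lower, against 2.06% and 13.6% of all tested genes, with a median of 0.33 over the 35. Which of these scales is nearer to RNA per cell was not tested.

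**Figure D2:**
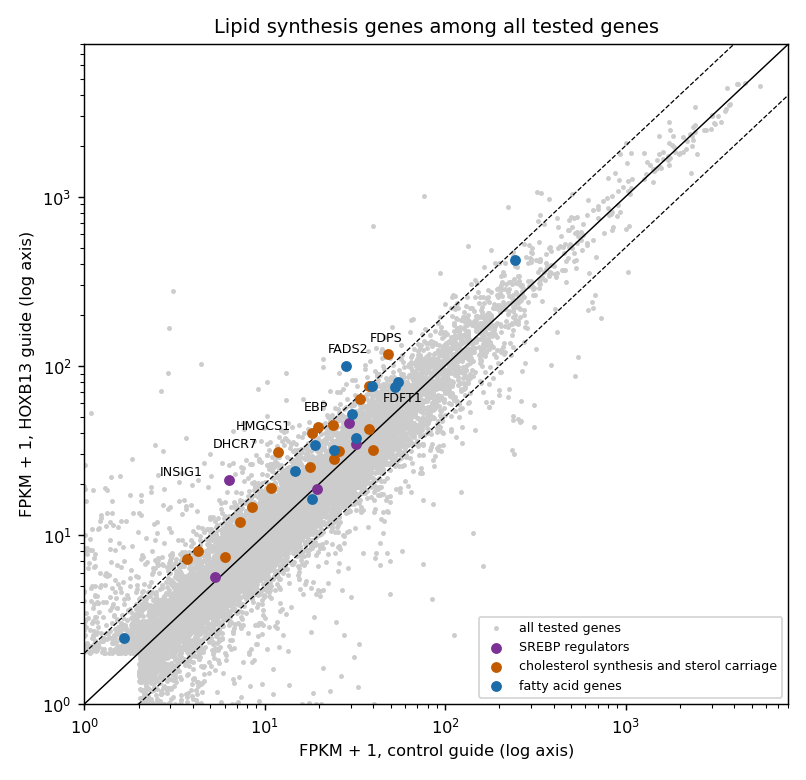
FPKM + 1 in the control library (x, log axis) against the HOXB13-guided library (y, log axis) for 11970 tested genes (grey) and the 35 lipid synthesis genes (coloured by group); the solid line marks equal values and the dashed lines 2-fold. The 7 named genes lie on or above the upper dashed line and none of the 35 lies below the lower one.

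Among the regulators, INSIG1 stood apart from its paralog and from SCAP. INSIG1, which holds the SCAP complex in the endoplasmic reticulum and whose hg19 locus is chromosome 7, 155089486 to 155101945, had 5.32 FPKM in the control and 20.2 FPKM in the HOXB13-guided library. Its log2 ratio was 1.75 and its plain ratio 3.79 (95% interval 3.36 to 4.29), and 1.27% of tested genes had a higher ratio. INSIG2, with the same role but less governed by SREBPs, had 4.28 and 4.61 FPKM (plain ratio 1.08, interval 0.899 to 1.29). The INSIG1 level was thus 1.24 times that of INSIG2 in the control and 4.38 times in the HOXB13-guided library. SCAP, the sterol-sensing escort, had 18.5 and 17.7 FPKM, and its plain ratio of 0.956 had an interval that held 1 (0.896 to 1.02).

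The SREBP genes themselves differed from each other. SREBF2, the factor for sterol genes, had 28.5 FPKM in the control and 45.2 FPKM in the HOXB13-guided library (log2 0.65, plain ratio 1.59, interval 1.52 to 1.66), short of 2-fold. SREBF1 had 31.1 and 33.7 FPKM (log2 0.11, plain ratio 1.08, interval 1.03 to 1.14). SREBF1 was the more abundant of the pair in the control, and SREBF2 in the HOXB13-guided library, at 0.917 and 1.34 times the level of SREBF1. The tables do not separate the SREBF1 transcripts that encode SREBP-1a and SREBP-1c, and a level of mRNA does not measure the cut nuclear protein. Centred on the housekeeping list, the ratios of SREBF1 and INSIG2 lay at −0.29 and −0.32.

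Sequence upstream of these genes was read for 4 motifs, since SREBPs act with NF-Y and Sp1 on the promoters of their targets. RefSeq promoters (GRCh38.p14, 250 bases before to 50 after the gene start) were found for 31 of the 35 genes. For 19 of them the RefSeq gene length differed by at most 1000 bases from the width of the deposited hg19 locus, so that the start may be the same one. The 4 sequences below show the SREBP-2 gene, chosen after the motifs were seen, INSIG1 and FDPS, which were at least 2-fold higher, and ACSS2, whose ratio lay below 0. They lie at chr22:41832855-41833154 (SREBF2, plus strand), chr7:155297628-155297927 (INSIG1, plus strand), chr1:155308616-155308915 (FDPS, plus strand) and chr20:34874739-34875038 (ACSS2, plus strand). Capitals mark every match, on either strand, to TCACNCCAC (sterol regulatory element), CACGTG (E-box), CCAAT (NF-Y box, ATTGG on the other strand) or GGGCGG (Sp1 box, CCGCCC on the other strand), and adjoining or overlapping Sp1 boxes run together.
SREBF2: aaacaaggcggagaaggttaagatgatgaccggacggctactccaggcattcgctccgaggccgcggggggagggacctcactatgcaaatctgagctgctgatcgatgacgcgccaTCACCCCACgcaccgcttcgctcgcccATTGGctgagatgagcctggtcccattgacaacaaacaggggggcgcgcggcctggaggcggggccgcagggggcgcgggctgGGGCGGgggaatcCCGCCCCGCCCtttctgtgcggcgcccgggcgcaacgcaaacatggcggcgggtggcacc
INSIG1: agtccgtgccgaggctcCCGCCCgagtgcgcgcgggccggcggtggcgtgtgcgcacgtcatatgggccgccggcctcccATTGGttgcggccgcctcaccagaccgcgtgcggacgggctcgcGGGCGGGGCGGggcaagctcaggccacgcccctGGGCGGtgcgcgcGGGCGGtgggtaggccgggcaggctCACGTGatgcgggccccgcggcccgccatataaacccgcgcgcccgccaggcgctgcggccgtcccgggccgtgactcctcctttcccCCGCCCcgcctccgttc
FDPS: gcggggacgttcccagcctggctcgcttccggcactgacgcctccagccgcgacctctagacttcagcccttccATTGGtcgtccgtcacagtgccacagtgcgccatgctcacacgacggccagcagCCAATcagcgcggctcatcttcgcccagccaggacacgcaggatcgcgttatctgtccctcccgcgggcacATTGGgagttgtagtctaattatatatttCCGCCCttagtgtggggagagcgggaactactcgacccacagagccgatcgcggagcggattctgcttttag
ACSS2: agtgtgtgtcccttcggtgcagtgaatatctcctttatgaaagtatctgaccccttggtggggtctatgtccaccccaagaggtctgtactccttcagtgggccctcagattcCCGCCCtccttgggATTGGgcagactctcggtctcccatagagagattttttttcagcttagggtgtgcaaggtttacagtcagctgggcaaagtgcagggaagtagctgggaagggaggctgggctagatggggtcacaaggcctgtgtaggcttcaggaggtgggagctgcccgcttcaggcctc
Among the 19, the pattern TCACNCCAC matched in the SREBF2 promoter alone, from base −133 to −125 relative to the start. An NF-Y box followed there from −106 to −102. No other form of the sterol regulatory element was searched, so promoters without a match may still hold one. In INSIG1 an E-box lay from −55 to −50, an NF-Y box from −170 to −166 and 6 Sp1 boxes around them, and FDPS held 3 NF-Y boxes and 1 Sp1 box.

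Over the 19 promoters the NF-Y box was present in 15 (78.9%), against 37.9% of the promoters of 6508 tested genes chosen in the same way. The Sp1 box was present in 17 (89.5%, against 73.0%), the E-box in 4 (21.1%, against 10.6%) and the pattern TCACNCCAC in 1 (5.26%, against 1.06%). Over all 31 promoters the NF-Y box was in 20 (64.5%), against 37.2% of 8751 promoters of tested genes and 34.6% of all 35116 promoters. A match describes letters in this window and shows no binding.

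Of the 18 genes of cholesterol synthesis and sterol carriage, 5 were at least 2-fold higher, against 4.25% of all tested genes. They were 5 of the 7 past 2-fold, in a group that holds 18 of the 35. The median log2 ratio of the 18 was 0.85, and 17 lay above 0, against 45.6% of all tested genes. On the housekeeping-centred scale 13 lay above 0, against 18.5% of all tested genes, and SQLE, LSS, CYP51A1 and SC5DL turned negative. The first steps condense acetyl-CoA units. ACAT2, the cytosolic thiolase, had 23.0 FPKM in the control and 43.7 FPKM in the HOXB13-guided library (log2 0.90). HMGCS1, which makes HMG-CoA, had 17.2 and 38.9 FPKM (log2 1.13, plain ratio 2.27, interval 2.12 to 2.42). Both were higher in the HOXB13-guided library, and HMGCS1 passed 2-fold. The 3' end of ACAT2 overlaps TCP1 over 558 bases, and TCP1 had 146 and 159 FPKM; without strand, reads in the overlap cannot be told apart.

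The kinases and the decarboxylase of the mevalonate pathway did not move together. MVK, mevalonate kinase, had 3.26 and 7.01 FPKM (log2 0.91, plain ratio 2.15, interval 1.73 to 2.65). PMVK, the next kinase, had 39.1 FPKM in the control and 30.9 FPKM in the HOXB13-guided library (log2 −0.33, plain ratio 0.791, interval 0.719 to 0.869), the lowest ratio of the 35. MVD, which makes isopentenyl diphosphate, had 7.50 and 13.6 FPKM (log2 0.78). PMVK was the most abundant of these 3 genes in both libraries, ahead of its neighbours in the pathway. IDI1, the isomerase of isopentenyl diphosphate, had 32.8 and 62.7 FPKM (log2 0.92). FDPS, which joins these units into farnesyl diphosphate and lies on chromosome 1 from 155278539 to 155290457 in hg19, had 47.3 and 116 FPKM (log2 1.27, plain ratio 2.44, interval 2.29 to 2.61). It had the second highest level of the 35 genes in the HOXB13-guided library, and its level relative to PMVK was 1.21 in the control and 3.74 in the HOXB13-guided library. The last 207 bases of FDPS overlap RUSC1-AS1, which had 5.47 and 10.4 FPKM.

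The ratio was about 2-fold at squalene synthase and small at the 3 enzymes after it. FDFT1, squalene synthase, the first step committed to sterols, had 36.7 and 74.9 FPKM (log2 1.01, plain ratio 2.04, interval 1.92 to 2.17) and lay just past 2-fold, a place it lost when FPKM were scaled to an equal total. SQLE, squalene epoxidase, had 24.8 and 30.5 FPKM (log2 0.29), and LSS, lanosterol synthase, had 23.2 and 27.1 FPKM (log2 0.22). CYP51A1, the lanosterol demethylase, had 36.9 and 41.4 FPKM (log2 0.16, plain ratio 1.12, interval 1.06 to 1.19). These 3 consecutive enzymes did not exceed the upper quartile of all tested genes (0.29), and their ratios turned negative (−0.12, −0.18 and −0.24) when centred on the housekeeping list. Summed, they had 84.9 and 99.0 FPKM, a ratio of 1.17, against 1.84 for the 7 genes from ACAT2 to FDPS. Grouping these 3 was not set in advance, and the 7 genes from FDFT1 to HSD17B7, which include them, had a ratio of 1.46.

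Most later steps of the pathway were higher again. TM7SF2, a sterol reductase, had 6.26 and 11.0 FPKM (log2 0.73), and NSDHL, of the demethylation complex, had 16.8 and 24.3 FPKM (log2 0.51). HSD17B7, the keto reductase of that complex, had 2.70 and 6.17 FPKM (log2 0.95, plain ratio 2.28), and its reads can be shared with the copy HSD17B7P2, which had 1.58 and 2.20 FPKM. Each was below 2-fold on the scale with the pseudocount. EBP, the sterol isomerase, had 18.7 and 42.6 FPKM (log2 1.15, plain ratio 2.28, interval 2.09 to 2.50). DHCR7, which makes cholesterol from 7-dehydrocholesterol, had 10.8 and 30.1 FPKM (log2 1.40, plain ratio 2.79, interval 2.55 to 3.06), the highest ratio of the 18. SC5DL, the desaturase that acts just before DHCR7, had 5.05 and 6.45 FPKM (log2 0.30), so the level of DHCR7 was 2.13 times that of SC5DL in the control and 4.67 times in the HOXB13-guided library. STARD4, a carrier of cholesterol between membranes, had 9.85 and 18.0 FPKM (log2 0.81).

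**Figure D3:**
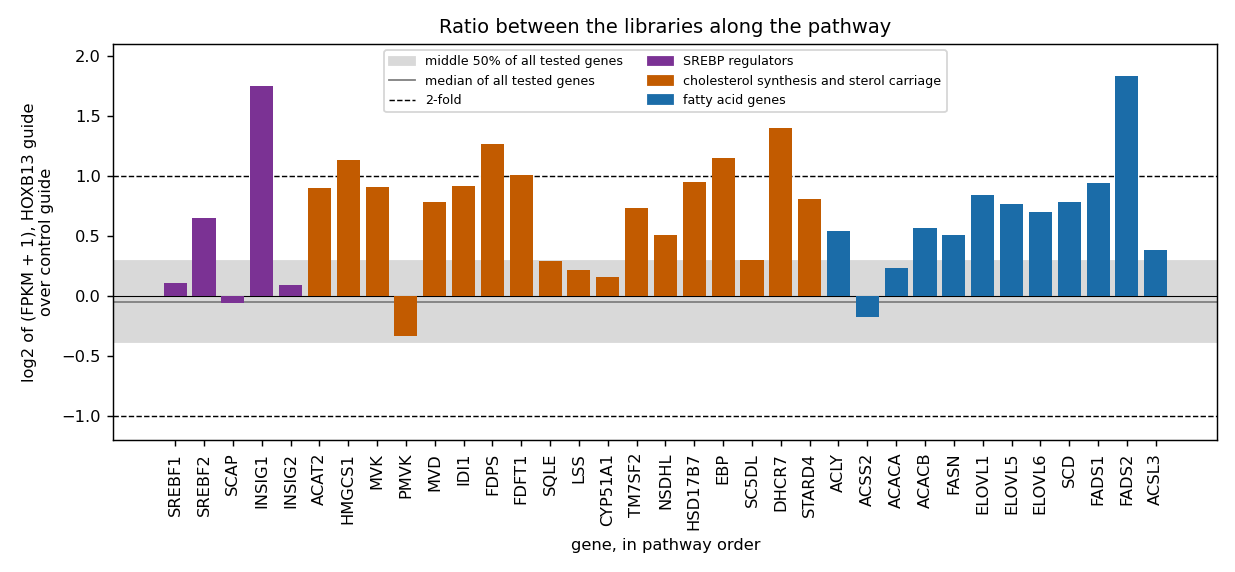
Log2 ratio of (FPKM + 1) in the HOXB13-guided over the control library for each lipid synthesis gene in pathway order, with bars coloured by group, dashed lines at 2-fold and the middle 50% of 11970 tested genes in grey. SQLE, LSS and CYP51A1 sit in the grey band between the taller bars of FDPS and FDFT1 and those of EBP and DHCR7; 8 of the genes above 0 lie below 0 once ratios are centred on the housekeeping list.

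Among the 12 fatty acid genes 1, FADS2, was at least 2-fold higher, against 4.25% of all tested genes. Another 10 lay above 0 by less, and ACSS2 lay below 0. The median log2 ratio of the 12 was 0.64, with 11 above 0, against 45.6% of all tested genes. On the housekeeping-centred scale 9 lay above 0, against 18.5% of all tested genes, and ACACA and ACSL3 lay at −0.17 and −0.02. Summed, the 12 genes had 549 and 938 FPKM, and 305 and 518 FPKM without SCD, the highest gene of the list. Acetyl-CoA comes from citrate through ACLY, ATP citrate lyase, which had 54.0 FPKM in the control and 78.9 FPKM in the HOXB13-guided library (log2 0.54). The other source, ACSS2, which activates acetate, had 17.4 and 15.3 FPKM (log2 −0.17, plain ratio 0.881, interval 0.809 to 0.960). ACLY was 3.11 times as abundant as ACSS2 in the control and 5.15 times in the HOXB13-guided library.

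ACACA, the cytosolic acetyl-CoA carboxylase that makes malonyl-CoA, had 30.9 and 36.6 FPKM (log2 0.23). ACACB, the mitochondrial form that restrains fatty acid oxidation, was near the limit of testing at 0.665 and 1.47 FPKM (log2 0.57, plain ratio 2.21, interval 1.81 to 2.71). FASN, which builds palmitate, had 51.7 and 73.9 FPKM (log2 0.51). ACACA was the major form by far, at 46.5 times the level of ACACB in the control and 24.9 times in the HOXB13-guided library.

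The elongases had like ratios. ELOVL1, which extends very long saturated chains, had 17.9 and 32.9 FPKM (log2 0.84). ELOVL5, for polyunsaturated chains, had 29.5 and 51.1 FPKM (log2 0.77), and ELOVL6, which extends palmitate, had 13.7 and 22.9 FPKM (log2 0.70). All 3 lay above the upper quartile of all tested genes. ACSL3, which activates fatty acids with coenzyme A, had 23.3 and 30.7 FPKM (log2 0.38).

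The desaturases held the most abundant gene and, with the pseudocount of 1, the highest ratio; without a pseudocount INSIG1 was higher (log2 1.92 against 1.86 for FADS2). SCD, which makes oleate and palmitoleate, had 244 FPKM in the control and 420 FPKM in the HOXB13-guided library (log2 0.78, plain ratio 1.72, interval 1.69 to 1.74), and was the highest of the 35 in each. FADS1 and FADS2, the delta-5 and delta-6 desaturases of polyunsaturated fatty acids, lie next to each other on chromosome 11, at 61567097 to 61584529 and 61595713 to 61634825 in hg19. FADS1 had 38.5 and 75.1 FPKM (log2 0.94, plain ratio 1.95, interval 1.87 to 2.02), and FADS2 had 27.3 and 99.3 FPKM (log2 1.83, plain ratio 3.64, interval 3.45 to 3.83). FADS2 was below FADS1 in the control and above it in the HOXB13-guided library (0.708 and 1.32 times its level), and passed from place 14 to place 3 of the 35 by level. Among tested genes 1.14% had a ratio above that of FADS2.

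Other genes of the pathway, grouped into lists of their own, gave a mixed picture; the medians below are each lower by 0.40 once centred on the housekeeping list. The 19 further genes of cholesterol synthesis and SREBP processing had a median log2 ratio of −0.02. Of them 0 were at least 2-fold lower, against 4.51% of all tested genes. MSMO1, the sterol C4 methyl oxidase, had 13.8 and 26.7 FPKM (log2 0.90), and IDI2, a paralog of IDI1, had 7.05 and 3.56 FPKM (log2 −0.82). The site-1 and site-2 proteases that cut SREBPs, named after their values were seen, were not higher: MBTPS1 had 22.7 and 22.4 FPKM and MBTPS2 10.1 and 7.49. Of 22 further genes of elongation, desaturation and activation 15 were tested, 5 of them at least 2-fold higher, against 4.25% of all tested genes, and 0 lower, with a median of 0.86. On the housekeeping-centred scale 0 of the 15 were 2-fold higher, against 2.06% of all tested genes. Over all 22, those below 1 FPKM included, the median was 0.06 on the scale as reported. ELOVL2, an elongase of polyunsaturated chains, had 1.56 and 5.68 FPKM (log2 1.38). SCD5, a second stearoyl-CoA desaturase, had 3.17 and 9.11 FPKM (log2 1.28), and ELOVL4, which makes very long chains, had 9.99 and 25.4 FPKM (log2 1.26). Also past 2-fold in that list were the dehydratase gene PTPLAD1, at 39.8 and 91.8 FPKM, and the last reductase of elongation, TECR, at 36.0 and 85.3 FPKM, both named after their values were seen.

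Isoprenoid branches, electron donors and the cholesterol export list had medians below the 0.73 of the 35 lipid synthesis genes. Their counts stand beside 4.25% of all tested genes at least 2-fold higher and 4.51% lower. The 13 isoprenoid genes had a median of 0.21, with 1 higher and 0 lower: ICMT, which methylates prenylated proteins, had 15.5 and 39.3 FPKM (log2 1.29), while GGPS1, which makes geranylgeranyl diphosphate, had 29.3 and 14.2 FPKM (log2 −0.99) and COQ2, of ubiquinone synthesis, 12.4 and 21.7 FPKM (log2 0.76). Of 6 tested electron donors and their partners 1 was at least 2-fold higher and 0 lower (median 0.41), namely PGRMC1, a membrane heme protein that binds P450 enzymes, at 112 and 258 FPKM (log2 1.20). CYB5B, an outer mitochondrial cytochrome b5, had 26.0 and 48.8 FPKM (log2 0.88), and CYB5R2, a cytochrome b5 reductase, 11.3 and 6.68 FPKM (log2 −0.68). Of 11 tested genes of cholesterol export, trafficking and LXR response, 1 was higher and 0 lower (median 0.29). ABCA1, which exports cholesterol, had 4.46 and 10.5 FPKM (log2 1.08), LPCAT3, which remodels phospholipids, 19.3 and 33.0 FPKM (log2 0.74), and NPC1, which moves cholesterol out of lysosomes, 18.8 and 11.2 FPKM (log2 −0.70). Centred on the housekeeping list, 0 genes of these 3 lists were at least 2-fold higher, while 2 isoprenoid genes, 1 electron donor gene and 1 export gene were at least 2-fold lower. Over all tested genes that scale gave 2.06% higher and 13.6% lower.

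Glycerolipid synthesis had 2 of 23 tested genes at least 2-fold higher, 0 lower and a median of 0.14. Over all tested genes 4.25% were higher and 4.51% lower. PTDSS1, phosphatidylserine synthase, had 20.7 and 45.1 FPKM (log2 1.09), PCYT2, of phosphatidylethanolamine synthesis, 7.14 and 15.8 FPKM (log2 1.05), and DGAT2, which makes triglycerides, 17.1 and 30.5 FPKM (log2 0.80). Fatty acid oxidation, which breaks down what the pathway makes, had 0 of 21 tested genes at least 2-fold higher and 1 lower, beside the same shares. Its median was −0.10. The lower gene was ECI1, an isomerase for unsaturated chains, with 137 and 52.3 FPKM (log2 −1.37). ETFDH, which passes electrons to ubiquinone, had 5.57 and 10.4 FPKM (log2 0.79), and CPT1A, which admits fatty acids to mitochondria, had 7.39 and 4.64 FPKM (log2 −0.57). The difference between these lists and the lipid synthesis genes was not tested.

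**Figure D4:**
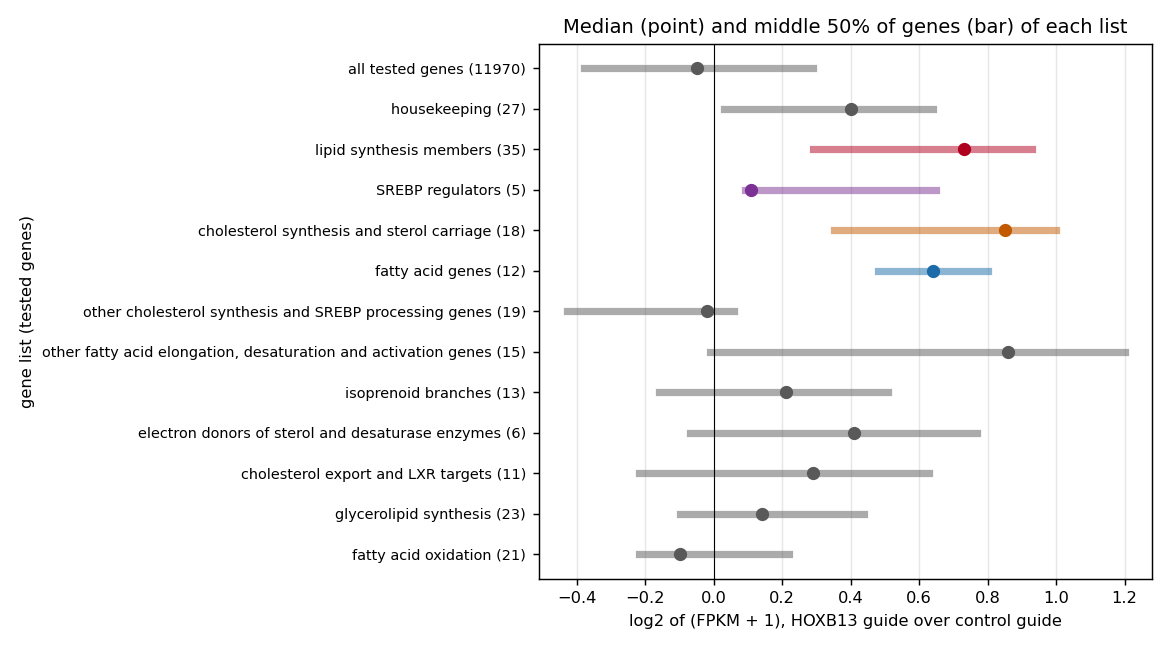
Median log2 ratio (points) and middle 50% of genes (bars) for all tested genes, housekeeping genes, the lipid synthesis genes and their groups, and the lists of linked lipid pathways, with the number of tested genes in brackets. The lipid synthesis genes lie at 0.73 and fatty acid oxidation at −0.10; housekeeping genes lie at 0.40.

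The lipid synthesis genes lay above the median of all genes in the other settings too, but most of these settings could hardly change that. Scaling and centring shift both medians by nearly the same amount. No lipid synthesis gene lay on several rows or below the 1 FPKM filter, so the row rule and the dropped filter left their values as they were. The median of the 35 genes ranged from 0.71 to 0.79 in the 9 other settings tried with a 2-fold rule, where that of all genes lay between −0.07 and 0.00, and centring on the housekeeping list lowered both, to 0.33 and −0.46.

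**Figure D5:**
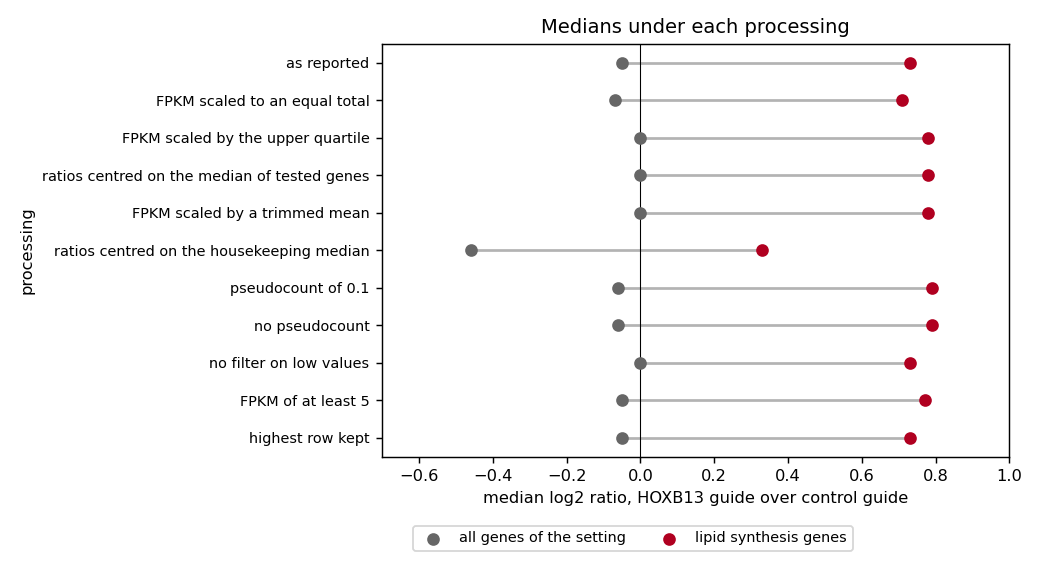
Median log2 ratio of all genes (grey) and of the lipid synthesis genes (red) with the values as reported and under each other processing. The distance between both medians is about the same in each line, and centring on the housekeeping list moves both to the left. Scaling and centring shift both medians nearly alike, so the distance in those lines is no check of the result.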

How the data were processed

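Each library had 1 table of FPKM per gene, deposited by the authors with a gene symbol and an hg19 locus. The submitters' processing notes name Bowtie, TopHat and Cufflinks; versions, annotation, settings and strand mode are not given in the sources used here. Deposited FPKM of 0.001 were read as 0, rows that share a symbol were summed, and 4 symbols with a failed estimate, none of them a lipid synthesis gene, were left out. Locus starts count from 0 in the tables and are printed from 1.

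Members and lists were chosen with earlier results of these data known, and no test was run because each group had 1 library. Named genes are the 35, HOXB13, SMARCB1 and, from each further list, the 3 largest absolute ratios, with exceptions stated; some of the genes so named are not reported here. Promoters were to be those of the 4 highest and 2 lowest ratios at 5 FPKM or more, and FADS2, DHCR7 and PMVK were dropped because their RefSeq gene length departed from the deposited locus.

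Of 2396 genes below 0.3 FPKM and above 0 in both libraries, 57.1% had a ratio between the libraries in whole-number steps. These were ratios of whole numbers up to 12, times 1.021, within a relative tolerance of 0.0002. Depth itself came from single-exon genes under 15 reads, with 204 bases taken off the length. In the control 27 of 35 gave reads within 0.03 of a whole number, and in the HOXB13-guided library 23 of 31. That length and depth were picked for the best agreement, so the depth is approximate. Read numbers used the median length of RefSeq-matched GENCODE 29 transcripts (build GRCh38, lengths only) and exact binomial intervals. The 2-fold calls and a scaling factor were tested on simulated data, and the depth estimate and the intervals were not. Python 3.11.15 was used with scipy 1.17.1 for intervals, pandas 2.3.3 and numpy 2.4.6 for tables, and matplotlib 3.10.9 for plots.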

Additional observations from a re-analysis of the deposited data

How the results depend on the processing

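No value comes from more than 1 library a group, so no replicate could be left out. No paired analysis was possible because each group had 1 library and no test was run. Over 11 planned settings the count at least 2-fold higher ranged from 6 (equal total) to 10 (pseudocount of 0.1, or none), apart from 2 with ratios centred on the housekeeping list and 20 under the 1.5-fold rule. The housekeeping centring also gave the median of 0.33 and 68.6% of the genes above 0. No gene was 2-fold lower in any setting. The regulators alone had a median of 0.11, and without FADS2 and INSIG1, a choice made after the data were seen, the median of the other 33 was 0.70. Of 383 recomputed ratios of single genes 48 moved by more than their counting interval and 0 of those past 2-fold changed sign. Of 231 recomputed medians and counts of the further lists, glycerolipid synthesis left out, 44 moved. A move was a change of over 1.5 times, a change of sign, or a count going from or to 0. The spread between cultures is unknown, so counting intervals understate the error.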

Other observations

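EBPL, a paralog of the sterol isomerase gene EBP, had 23.6 FPKM in the control and 55.6 FPKM in the HOXB13-guided library, beside 18.7 and 42.6 FPKM for EBP. The microRNA genes MIR33A and MIR33B, which lie in introns of SREBF2 and SREBF1, were listed at 0 in both libraries, and FPKM of such short RNAs are unsteady. Several genes that serve lipid synthesis in liver or fat, picked here for their low values, were below 1 FPKM in both libraries. THRSP had 0.255 and 0.0869 FPKM, MID1IP1 0.138 and 0.0500, and ACSL5 0.193 and 0.0705. ME1, the cytosolic malic enzyme, was listed at 0 in the control, with 0.0128 FPKM in the HOXB13-guided library. Other genes of the further lists were above that level, among them ACSL1 at 3.02 and 3.23 FPKM and GPAM at 9.76 and 8.45 FPKM.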
